A study of Mus musculus with 7 samples.

Results

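Gcnt2 and 6 further genes that build or carry selectin ligands were followed in natural killer (NK) cells of mouse spleen. The 7 genes are Gcnt1, Gcnt2, Fut7, St3gal4, St3gal6, B4galt1 and Selplg. They were picked by symbol, and the choice was made with the large difference of Gcnt2 between the genotypes already known. Each symbol matched 1 row, so 7 of the 53379 genes in the count table are described here. Because the choice drew on the comparison of Hhex KO with Cre control, the values of these 7 genes in that comparison are given as a description. Counts of calls among them are printed beside those of all genes, and no support is drawn from them.

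The libraries came from 4 samples labelled Hhex KO and 3 labelled Cre control, all on the C57BL/6 strain and sorted directly ex vivo as CD45+ CD3- NK1.1+ NKp46+ CD49b+ cells. Both genotypes thus went through the same gate. Which promoter drives the Cre, which alleles the controls carry and the age of the mice are not stated in the labels. Hhex encodes a homeobox transcription factor, and the series title names its role in NK cell homeostasis.

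Selectins are lectins on blood vessels, platelets and leukocytes that catch passing cells and let them roll. Their ligands are sugar structures, above all sialyl Lewis x, which enzymes of the Golgi assemble one sugar at a time on scaffold proteins such as PSGL-1, the product of Selplg. Gcnt1 makes the branch of O-linked glycans on which this structure is extended, B4galt1 adds galactose, St3gal4 and St3gal6 add sialic acid, and Fut7 adds the fucose that completes it. Gcnt2 acts beside this route: it places branches along chains of repeated N-acetyllactosamine and so makes the I antigen, known from human red cells. In humans and mice the gene has alternative first exons that give different forms of the enzyme.

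The alternative starts of Gcnt2 are shown because the gene differed most among the 7 and because reads were counted over the whole gene, so that the start in use cannot be read from the table. The set of RefSeq promoter windows used, on GRCm38.p6, covered 6 of the 7 genes, all but Selplg, and held 3 windows for Gcnt2. Each stretch below runs 5′ to 3′ on the plus strand from 250 to 51 bases before a start site, and capitals mark TAAT or its reverse complement ATTA, the core letters that many homeodomain proteins bind.
Start 1, chr13:40859518-40859717: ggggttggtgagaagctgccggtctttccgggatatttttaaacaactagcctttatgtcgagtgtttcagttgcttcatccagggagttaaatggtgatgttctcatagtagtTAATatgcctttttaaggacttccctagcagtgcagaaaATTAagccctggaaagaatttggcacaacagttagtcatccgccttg
Start 2, chr13:40886508-40886707: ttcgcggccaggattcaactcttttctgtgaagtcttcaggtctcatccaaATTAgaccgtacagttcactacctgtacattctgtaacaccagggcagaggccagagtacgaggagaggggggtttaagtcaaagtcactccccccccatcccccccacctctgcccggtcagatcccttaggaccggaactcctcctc
Start 3, chr13:40917384-40917583: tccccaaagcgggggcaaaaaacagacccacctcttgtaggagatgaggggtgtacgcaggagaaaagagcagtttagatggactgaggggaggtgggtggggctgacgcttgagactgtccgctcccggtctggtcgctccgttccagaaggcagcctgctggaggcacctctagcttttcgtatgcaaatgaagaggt
The stretch before start 1 holds the core letters 2 times, that before start 2 holds them 1 time and that before start 3 holds them 0 times, counted on both strands. GENCODE M21 places transcript starts within 50 bases of starts 1 and 3, and none that close to start 2. The nearest to start 2, which is at 40886758, is that of the protein-coding transcript Gcnt2-202, downstream at 40887193. A match to the core letters is common: 50.1% of 32851 windows of the same length hold one. The longer form TAATTA is in none of the 3 stretches and in 4.19% of all windows. These matches describe letters only.

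Total counts ranged from 10589915 to 18456404 per library. The targeted gene, Hhex, was at 54.2 to 64.8 CPM (read counts relative to the scaled size of the library) in Hhex KO and 93.5 to 96.1 CPM in Cre control (adjusted p = 0.00768, edgeR; an adjusted p below 0.05 is termed a call from here on). Which exons of Hhex these reads cover cannot be seen in gene totals. Markers of the gate were present in both genotypes, with Ncr1 (NKp46) at 791 to 1004 CPM in Hhex KO and 834 to 1035 CPM in Cre control. Although the gate was CD3-, Cd3d was read in every library, at 30.6 to 57.2 CPM in Hhex KO and 16.5 to 30.3 CPM in Cre control. The Hhex KO libraries fell into pairs: the chi-square of their counts per degree of freedom was 10.4 between replicates 2 and 3 and 25.9 between replicates 1 and 4, but 62.8 to 71.5 across the pairs. The nuclear RNA Malat1 split the same way, at 918 and 650 CPM in Hhex KO replicates 1 and 4 and at 155 and 138 CPM in replicates 2 and 3, with Cre control at 243 to 619 CPM. Values of the 7 genes are therefore also given with either pair left out. No label ties the samples to separate animals, and errors and p-values therefore measure the spread between samples, part of which may be technical.

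Gcnt2 (ENSMUSG00000021360.16, chromosome 13, 40859754 to 40960892, plus strand) was barely read in Cre control and clearly read in every Hhex KO library. It had 613, 744, 796 and 414 reads in Hhex KO replicates 1 to 4, against 29, 20 and 54 reads in Cre control replicates 1 to 3. Scaled to library size, Gcnt2 stood at 39.7, 42.6, 46.9 and 36.7 CPM in Hhex KO, against 2.17, 1.76 and 2.92 CPM in Cre control. The groups were far apart: the lowest Hhex KO library lay above the highest Cre control library by more than the whole spread of either group. The means were 41.5 ± 4.36 CPM in Hhex KO (SD, n = 4) and 2.28 ± 0.587 CPM in Cre control (SD, n = 3), a ratio of 18.2. The log2 fold change of Hhex KO over Cre control was 4.15 ± 0.20 (SE), which placed Gcnt2 24th from the top among the 12161 genes tested. Its level varied by 10.5% of the mean (coefficient of variation) among Hhex KO libraries and by 25.7% among Cre control libraries, where few reads stood behind each value. Unlike several of the genes that follow, Gcnt2 was close to the same with either pair of Hhex KO libraries left out, with log2 fold changes of 4.24 without replicates 1 and 4 and 4.03 without replicates 2 and 3. In bulk RNA, more cells that express a gene and more RNA per cell cannot be told apart.

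Markers of type 1 innate lymphoid cells (ILC1), the tissue-resident relatives of NK cells, differed together with Gcnt2. All 7 genes of that list were called higher, against 2.68% of all tested genes. Since the list was chosen with earlier results of these data known, no support is drawn from this count. The summed level of the 7 markers was 410 to 550 CPM in Hhex KO and 60.6 to 79.2 CPM in Cre control. None of these markers was at 0 in any group. Of 8 NK cell markers, 0 were called, and 1 was lower at an unadjusted p below 0.05 (edgeR). Among them, Eomes was at 711 to 801 CPM in Hhex KO and 740 to 843 CPM in Cre control. Itga2 (CD49b) was at 423 to 512 CPM in Hhex KO and 380 to 543 CPM in Cre control. The B cell markers Ms4a1, Cd79a, Cd79b and Pax5 were highest in Hhex KO replicate 1, where Ms4a1 (CD20) was at 9.91 CPM, against 0.0589 to 1.09 CPM in the remaining 3 libraries of Hhex KO and 0.0540 to 0.528 CPM in Cre control. Gcnt2 in that library lay inside the range of those 3. The neutrophil gene S100a8 was highest in Hhex KO replicate 2, at 112 CPM, against 3.90 to 18.3 CPM in the remaining Hhex KO samples and 6.27 to 12.1 CPM in Cre control, and there too Gcnt2 lay inside the range of the others. The summed B cell list, most of it Ighm, was highest in Hhex KO replicate 2 and lay at 240 to 404 CPM in Hhex KO and 211 to 256 CPM in Cre control, and 1 of its 3 tested genes, Cd79b, was called higher. The summed T cell list was at 390 to 455 CPM in Hhex KO and 274 to 323 CPM in Cre control. Most of that sum was Trbc1 and Trbc2. Of its 7 tested genes, 6 were higher at an unadjusted p below 0.05 (edgeR), and 1, Trbc2, was called. The share of all tested genes at an unadjusted p below 0.05 is not given. Counts at that threshold, here and for the lists below, are therefore a description only. Cd4, Cd8a and Cd8b1 did not pass the filter on low counts. The gate was set against these cell types: CD3- against T cells, NK1.1+ NKp46+ against B cells and neutrophils, and CD49b+ against ILC1, which are mostly negative for it. How completely the sort removed them cannot be read from these counts. The part of these cells in the level of Gcnt2 was not tested.

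**Figure D1:**
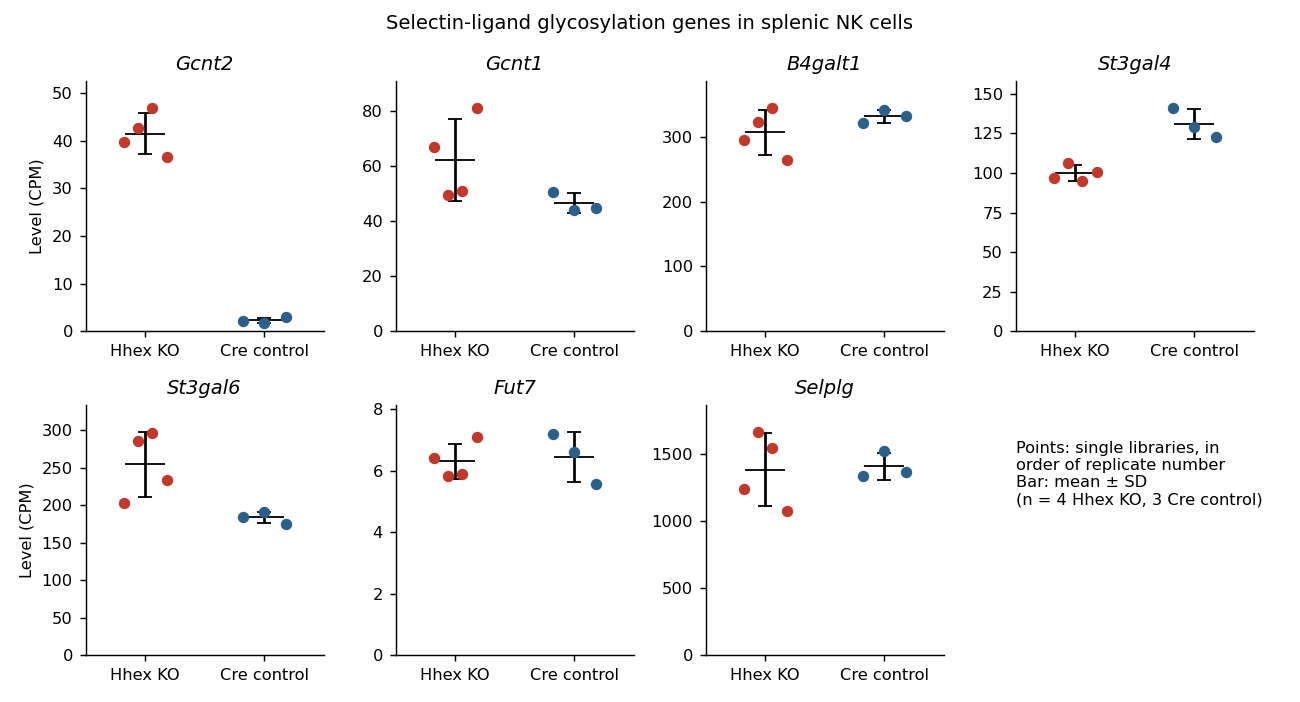
Level in CPM (vertical axes, each from 0) of the 7 genes in single libraries of Hhex KO (left) and Cre control (right); points are libraries, and bars give the mean ± SD (n = 4 Hhex KO, n = 3 Cre control). Gcnt2 sits at 36.7 to 46.9 CPM in Hhex KO and 1.76 to 2.92 CPM in Cre control, while Gcnt1, B4galt1, Fut7 and Selplg overlap between the groups.

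Gcnt1 (ENSMUSG00000038843.17, chromosome 19, 17326141 to 17372844, minus strand), the O-glycan branching enzyme, is the other expressed gene of the Gcnt family. It had 66.8, 49.5, 50.9 and 81.0 CPM in Hhex KO replicates 1 to 4, against 50.6, 44.1 and 44.9 CPM in Cre control replicates 1 to 3. Replicates 1 and 4 of Hhex KO were high, whereas replicate 3 lay just above the highest Cre control library and replicate 2 lay inside the Cre control range. The log2 fold change was 0.41 ± 0.18 (SE). It was 0.10 ± 0.11 without replicates 1 and 4 and 0.67 ± 0.13 without replicates 2 and 3, so the size of the difference followed the pair of libraries used. The other family members on the fixed lists were hardly read: Gcnt3 and Gcnt7 had 0 reads in every library, which allows up to 0.162 to 0.266 CPM (3 reads per library, counting error alone), and Gcnt4 did not exceed 0.0880 CPM.

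B4galt1 (ENSMUSG00000028413.13, chromosome 4, 40804602 to 40854005, minus strand), the galactosyltransferase, was at a similar level in both groups. It had 296, 323, 345 and 264 CPM in Hhex KO, against 322, 341 and 332 CPM in Cre control. The Hhex KO libraries spread on both sides of the narrow Cre control range. The log2 fold change was -0.11 ± 0.13 (SE). It was -0.0012 ± 0.09 without Hhex KO replicates 1 and 4 and -0.24 ± 0.12 without replicates 2 and 3.

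The sialyltransferase genes St3gal4 and St3gal6, whose enzymes act on the same kind of acceptor, differed in opposite directions. St3gal4 (ENSMUSG00000032038.7, chromosome 9, 35046576 to 35119268, minus strand) had 97.0, 106, 95.01 and 100.4 CPM in Hhex KO, against 141, 129 and 123 CPM in Cre control. All 4 Hhex KO libraries were below all 3 Cre control libraries, and the log2 fold change was -0.39 ± 0.10 (SE). St3gal6 (ENSMUSG00000022747.16, chromosome 16, 58468125 to 58524243, minus strand) had 203, 286, 296 and 234 CPM in Hhex KO, against 185, 191 and 175 CPM in Cre control. The groups did not overlap, but Hhex KO replicate 1 lay close to the highest Cre control library. Its log2 fold change was 0.47 ± 0.15 (SE), and ranged from 0.65 ± 0.09 without Hhex KO replicates 1 and 4 to 0.26 ± 0.12 without replicates 2 and 3. St3gal4 was steadier, at -0.39 ± 0.10 and -0.40 ± 0.12 in the same settings. A transcript on the opposite strand overlaps St3gal4, 4930581F22Rik, at 6.60 to 38.2 CPM in Hhex KO and 10.3 to 20.4 CPM in Cre control, and the coding gene Dcbld2, at 1.60 to 3.04 CPM in Hhex KO and 2.46 to 2.59 CPM in Cre control, overlaps St3gal6. Since the strand setting of the counting was not stated in the material used, reads in the shared stretches are uncertain.

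Fut7 (ENSMUSG00000036587.13, chromosome 2, 25423267 to 25426374, plus strand), the fucosyltransferase that completes sialyl Lewis x, was low in all libraries. It had 6.41, 5.84, 5.89 and 7.09 CPM in Hhex KO, against 7.19, 6.60 and 5.57 CPM in Cre control. The groups overlapped throughout, with a log2 fold change of -0.03 ± 0.18 (SE), on 80 to 102 reads per Hhex KO library and 75 to 103 reads per Cre control library. It was -0.14 ± 0.21 without Hhex KO replicates 1 and 4 and 0.07 ± 0.22 without replicates 2 and 3. Of the related genes, Fut4 was at 0.443 to 1.60 CPM in Hhex KO and 0.264 to 0.594 CPM in Cre control, below the filter on low counts, and Fut9 had 0 reads in every library.

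Selplg (ENSMUSG00000048163.13, chromosome 5, 113818536 to 113832644, minus strand), the scaffold, was the most abundant of the 7 genes. It had 1239, 1670, 1547 and 1079 CPM in Hhex KO, against 1339, 1525 and 1368 CPM in Cre control. Hhex KO replicates 2 and 3 lay above the Cre control range and replicates 1 and 4 below it, so the mean hides a split within Hhex KO. The log2 fold change was -0.03 ± 0.18 (SE) over all libraries, 0.18 ± 0.11 without Hhex KO replicates 1 and 4 and -0.28 ± 0.14 without replicates 2 and 3.

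Over the whole table, edgeR called 2.68% of the 12161 tested genes higher and 1.87% lower in Hhex KO. All 7 genes passed the filter on low counts. Gcnt2 was the 1 gene of the 7 called higher, and 0 were called lower (1 at an unadjusted p below 0.05, and 1 with DESeq2). Of all tested genes, 9.37% had every Hhex KO library above every Cre control library, and 9.98% had every one below. Gcnt2 and St3gal6 were 2 genes of the first kind and St3gal4 was 1 of the second. Nothing is read from these counts, since the 7 genes were chosen with this comparison known. The median log2 fold change was -0.03 over the 7 genes and 0.02 over all tested genes.

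**Figure D2:**
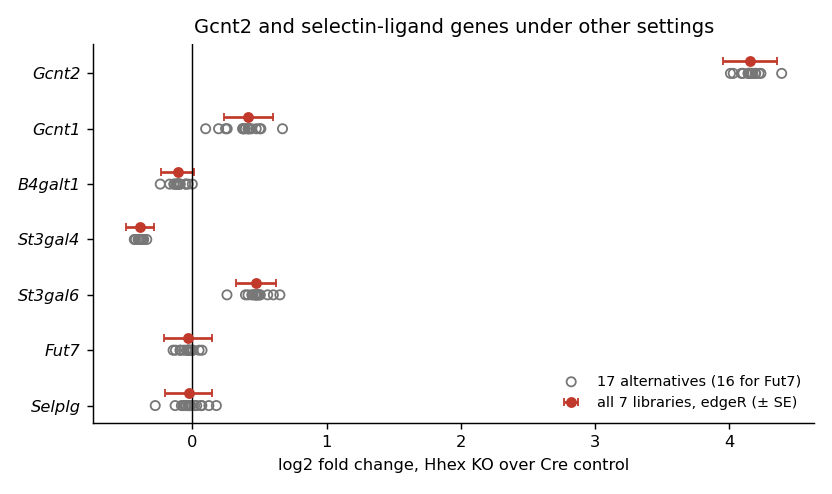
Log2 fold change of Hhex KO over Cre control (horizontal axis) of the 7 genes; filled points are the edgeR values on all 7 libraries with their SE, open points the values under other scalings, filters and tests and with libraries left out. Gcnt2 stays between 4.01 and 4.39, St3gal4 between -0.43 and -0.34, and Selplg spreads on both sides of 0, between -0.28 and 0.18.

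Levels of different genes were compared per length, as CPM per kb of annotated exon. This scale counts all annotated exons of a gene and would understate a gene that uses few of them. Gcnt2 has 6 annotated transcripts, and which of them were present cannot be read from gene totals. In Cre control the order was Selplg, B4galt1, St3gal4, St3gal6, Gcnt1, Fut7 and Gcnt2 in all 3 libraries, with mean levels of 330, 78.3, 44.8, 29.8, 8.07, 2.74 and 0.324 CPM per kb. No neighbours in this order overlapped among the Cre control libraries. In Hhex KO, Gcnt2 stood above Fut7 in all 4 libraries, at 5.88 ± 0.618 against 2.68 ± 0.246 CPM per kb (SD, n = 4 each), and remained below Gcnt1. The level of Gcnt2 relative to Gcnt1 was 0.370 to 0.753 in Hhex KO libraries, against 0.0326 to 0.0531 in Cre control libraries. St3gal6 and St3gal4 changed places in 3 of 4 Hhex KO libraries: the level of St3gal6 relative to St3gal4 was 0.993, 1.27, 1.48 and 1.11 in Hhex KO replicates 1 to 4, against 0.619, 0.702 and 0.677 in Cre control replicates 1 to 3. As this ratio joins the values given above, it adds no separate support.

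**Figure D3:**
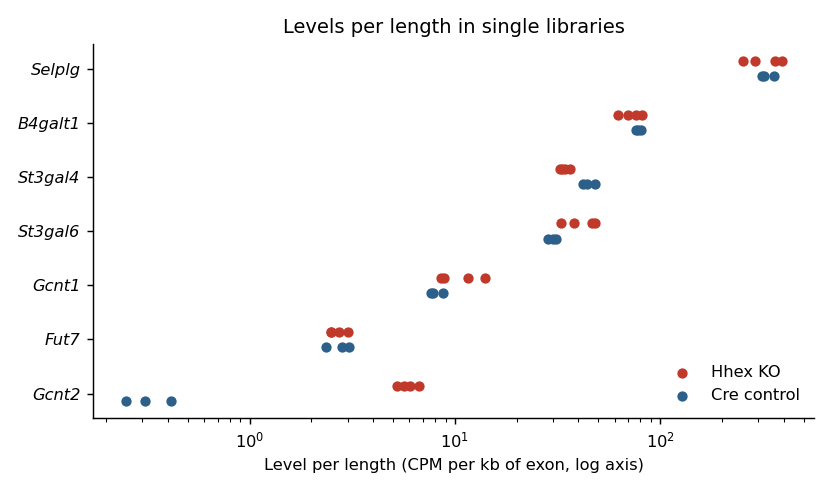
Level per length (CPM per kb of exon, logarithmic horizontal axis) of the 7 genes in single libraries, with Hhex KO above Cre control for each gene. Gcnt2 is the lowest of the 7 in Cre control, at 0.250 to 0.414 CPM per kb, and lies above Fut7 in Hhex KO, at 5.20 to 6.65 CPM per kb.

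The rest of the machinery was read from 13 lists of glycosylation genes that exclude the 7. Of 144 listed symbols 142 were in the table, and 95 passed the filter on low counts. Of those 95, 2 rose and 1 fell, or 3.16%, against 4.56% of all tested genes, and the median log2 fold change was -0.01. With all libraries kept, the count depended on the tool, at 5 higher and 5 lower genes with DESeq2 and 14 and 10 with limma-voom with sample quality weights. Without Hhex KO replicates 1 and 4 it was 16 higher and 13 lower, and without replicates 2 and 3 it was 5 and 5. The share of all genes called was also larger in these settings: it was 9% with DESeq2, against 10.5% of the list genes, 23.5% with quality weights, against 25.3%, 28.3% without replicates 1 and 4, against 29.3%, and 7.21% without replicates 2 and 3, against 10.8%. No test set these shares against each other. The genes named from these lists were those called and otherwise the 2 with the smallest p of a list.

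St3gal1, whose enzyme puts sialic acid on the unbranched O-glycan that Gcnt1 would otherwise extend, was the 1 gene called of 10 tested sialyltransferases. It fell to 128, 122, 122 and 108 CPM in Hhex KO, against 171, 159 and 162 CPM in Cre control. The groups did not overlap (log2 fold change -0.45 ± 0.10, adjusted p = 0.0467 by the quasi-likelihood F test of edgeR). DESeq2 called it lower and St6galnac3 higher. This call was lost without any 1 of the 3 Cre control libraries or of Hhex KO replicates 2 and 3 (adjusted p = 0.101 to 0.197), with no filter (0.117), with the replicate block on the 6 libraries numbered 1 to 3 (0.0714) and without both Hhex KO replicates 2 and 3 (0.0559). Over all 17 alternatives the adjusted p ran from 0.000664 to 0.197, and the fold change stayed between -0.49 and -0.41.

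Man2a2, an alpha-mannosidase that trims N-linked glycans, was the 1 gene called of 7 tested in N-glycan branching. It rose to 55.6, 40.0, 40.2 and 53.2 CPM in Hhex KO, against 23.6, 21.8 and 26.2 CPM in Cre control. Every Hhex KO library was above every Cre control library (log2 fold change 0.98 ± 0.16, adjusted p = 0.0123, edgeR). Leaving out any 1 Cre control library ended the call (adjusted p = 0.0582 to 0.0832; 1.25e-05 to 0.0832 over all 17 alternatives). Cd22, a receptor that binds sialic acid and is best known from B cells, was the 1 gene called of 6 tested lectins. It rose to 76.1, 65.5, 88.9 and 60.4 CPM in Hhex KO, against 10.1, 19.4 and 13.1 CPM in Cre control. No library of Hhex KO came near the Cre control range (log2 fold change 2.36 ± 0.24, adjusted p = 0.00129, edgeR), and the call held in all 17 alternatives, with an adjusted p of at most 0.0167.

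No gene passed the test in the remaining lists with edgeR. Among 10 tested selectins and scaffolds, 4 had an unadjusted p below 0.05, and DESeq2 called Podxl higher and Selp lower. Spn, which encodes the scaffold CD43 and was not among those 4, was at 1396 to 1936 CPM in Hhex KO and 1958 to 2155 CPM in Cre control; it was looked up after the values were seen. Selp, P-selectin, was low, at 1.18 to 2.18 CPM in Hhex KO and 2.62 to 3.61 CPM in Cre control (log2 fold change -1.10 ± 0.30, adjusted p = 0.0835, edgeR; 0.0483 without Hhex KO replicate 2 and 0.0279 to 0.283 over the 16 alternatives that tested it). Platelets carry P-selectin, and markers of platelets lay on the same side: their sum was 16.7 to 32.4 CPM in Hhex KO and 37.4 to 54.0 CPM in Cre control. Of these 5 markers, edgeR called 1 lower, against 1.87% of all tested genes, and 5 were lower at an unadjusted p below 0.05. DESeq2 called 3 lower, against 9% of all tested genes called in either direction. The part of platelets in the level of Selp was not tested. Podxl, a mucin-like scaffold, was at 2.83 to 6.70 CPM in Hhex KO and 1.85 to 2.62 CPM in Cre control (log2 fold change 1.08 ± 0.32, adjusted p = 0.103, edgeR; 0.00890 to 0.302 over 16 alternatives).

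Enzymes that start and extend O-glycans gave 0 calls among 9 initiating transferases (3 at an unadjusted p below 0.05; 1 lower with DESeq2, Galnt10) and 0 among 3 core enzymes (0 at an unadjusted p below 0.05 and 0 with DESeq2). Galnt10, an initiating enzyme, was at 97.2 CPM on average in Hhex KO and 128 CPM in Cre control (log2 fold change -0.39 ± 0.12, adjusted p = 0.0971, edgeR; 0.0200 to 0.306 over 17 alternatives), and Galnt12 stood at 0.37 ± 0.13 on that scale (adjusted p = 0.159). The chaperone gene C1galt1c1 had -0.12 ± 0.12 (adjusted p = 0.676, edgeR) and B3gnt3, near 1 CPM, 0.82 ± 0.48 (adjusted p = 0.428). Of 14 tested galactosyltransferase and poly-N-acetyllactosamine genes, 4 had an unadjusted p below 0.05, and DESeq2 called B4galt4 higher and B4galt5 lower. B4galt5, a relative of B4galt1, was at 256 to 327 CPM in Hhex KO and 402 to 422 CPM in Cre control, without overlap (log2 fold change -0.44 ± 0.12, adjusted p = 0.0889, edgeR; 0.00456 to 0.274 over 17 alternatives). B4galt4 was at 0.974 to 2.58 CPM in Hhex KO and 0.162 to 0.792 CPM in Cre control (2.13 ± 0.59, adjusted p = 0.0832, edgeR; 0.00626 to 0.310 over 16 alternatives).

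Of 4 tested fucosyltransferases, 1 had an unadjusted p below 0.05 and DESeq2 called 0. Fut8, which adds the core fucose of N-glycans, was at 71.9 to 85.3 CPM in Hhex KO and 61.9 to 66.0 CPM in Cre control (log2 fold change 0.30 ± 0.11, adjusted p = 0.165, edgeR), and Fut11 had 0.15 ± 0.14 (adjusted p = 0.659). Of 6 genes that supply fucose in its activated form, 0 had an unadjusted p below 0.05 and DESeq2 called 0, with Fpgt at -0.21 ± 0.14 and Slc35c2 at -0.16 ± 0.15 on the log2 scale (edgeR). Of 5 tested genes of sialic acid supply, 1 had an unadjusted p below 0.05 and DESeq2 called 0. Cmah, which modifies sialic acid and is lost in humans, was at 141 and 135 CPM in Hhex KO replicates 1 and 4, at 81.1 and 91.3 CPM in replicates 2 and 3, and at 68.1 to 87.1 CPM in Cre control (log2 fold change 0.56 ± 0.21, adjusted p = 0.199, edgeR). Gne, the entry enzyme of sialic acid synthesis, had -0.12 ± 0.11 (adjusted p = 0.631, edgeR).

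Supply of UDP-sugars and sulfation follow. Of 13 genes that make and carry UDP-sugars, 4 had an unadjusted p below 0.05, and DESeq2 called Slc35a3 lower. Slc35a3, a Golgi carrier of UDP-N-acetylglucosamine, was at 43.9 to 53.7 CPM in Hhex KO and 61.5 to 63.3 CPM in Cre control (log2 fold change -0.36 ± 0.11, adjusted p = 0.109, edgeR; 0.0158 to 0.306 over 17 alternatives), and Galk1, galactokinase, had 0.61 ± 0.20 (adjusted p = 0.139). Of 6 sulfation genes, 0 had an unadjusted p below 0.05 and DESeq2 called 0. Tpst2, a tyrosine sulfotransferase of the kind that modifies PSGL-1, was at 193 to 276 CPM in Hhex KO and 257 to 295 CPM in Cre control (log2 fold change -0.24 ± 0.15, adjusted p = 0.458, edgeR), and Slc35b2 had 0.18 ± 0.13 (adjusted p = 0.523). Of the sialidase genes, which remove sialic acid, 2 were tested, with 0 at an unadjusted p below 0.05 and 0 called by DESeq2. Neu1 had 0.03 ± 0.12 (adjusted p = 0.949, edgeR) and Neu3 -0.11 ± 0.30 (adjusted p = 0.907).

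**Figure D4:**
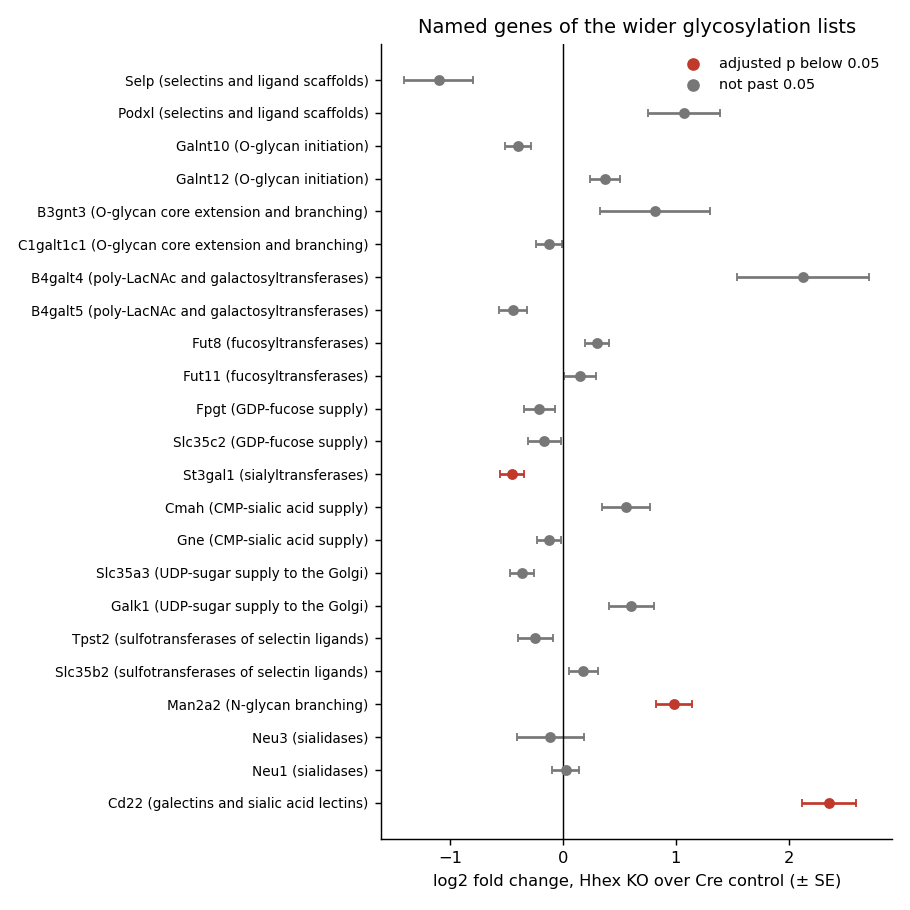
Log2 fold change of Hhex KO over Cre control with its SE (horizontal axis) for the named genes of the 13 lists; red marks an adjusted p below 0.05. St3gal1 lies at -0.45, Man2a2 at 0.98 and Cd22 at 2.36, and the other genes shown are not past 0.05.

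The 5 genes whose level followed Gcnt2 most closely were Nrp2, Jade3, Daam1, Epas1 and Cd226, with Pearson r of log2 CPM over the 7 libraries of 0.995, 0.992, 0.991, 0.991 and 0.989 among 9341 genes considered. Nrp2, a neuropilin, was the 1 of the 5 with a difference of similar size, at 41.4 to 52.3 CPM in Hhex KO and 2.10 to 2.49 CPM in Cre control. Jade3 had 9.83 to 10.3 CPM in Hhex KO and 7.48 to 7.84 CPM in Cre control, which shows that a high r does not require a large difference. These r values rest on the step between the genotypes, and 83 genes reached 0.95 or more. Within the genotypes, after the group means were removed, r with Gcnt2 was 0.33 for Nrp2, 0.52 for Jade3, 0.20 for Daam1, 0.29 for Epas1 and -0.07 for Cd226.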

How the data were processed

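Raw read counts, not normalized, were deposited by the authors for 53379 genes in 7 libraries. STAR, featureCounts and mm10 are named in the submitters' processing notes, without versions, annotation release or strand setting. Columns were matched by the sample description, and symbols by Ensembl identifier without version (99.8% matched). Coordinates and exon lengths are from GENCODE M21 on GRCm38, 1-based, and promoter windows from RefSeq on GRCm38.p6.

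Genes were filtered by group (minimum count 10, minimum total 15), scaled by TMM and tested with edgeR 4.0.16 in R 4.3.3 (robust quasi-likelihood F test, no covariate, 4 Hhex KO against 3 Cre control). P-values were Benjamini-Hochberg adjusted over all 12161 tested genes, with calls below 0.05. SE values are log2 fold changes over the root of F. CPM use the TMM-scaled library size, and means are given with their SD.

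Alternatives comprised scaling by RLE or upper quartile, no filter, a stricter filter (10 CPM in 3 libraries), DESeq2 1.42.0, limma-voom 3.58.1, the same with sample quality weights, a replicate block (without Hhex KO replicate 4), and leaving out each library. Leaving out pairs of Hhex KO libraries was added after seeing the data. The procedure was tested on simulated counts. Members and lists were chosen with earlier results of these data known. Named were Hhex, the 7 genes, from each list every called gene or else the 2 with the smallest p, and the 5 genes with the highest r with Gcnt2 (average log2 CPM of at least 2, no predicted genes). Replicate libraries differed by more than sampling noise (chi-square per degree of freedom 10.4 to 71.5), so each counts as 1 replicate. Some results are not reported here.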

Additional observations from a re-analysis of the deposited data

Results flagged for a closer look

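In 36 checks of single genes over the 4 Hhex KO libraries, 1 value stood apart. Selp was at 2.18 CPM in Hhex KO replicate 2, against 1.18 to 1.33 CPM in replicates 1, 3 and 4. About 1 in 20 such groups is marked by chance. Without that library the log2 fold change of Selp was -1.35, against -1.10 with it.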

How the results depend on the processing

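Gcnt2, chosen with this difference known, had log2 fold changes of 4.01 to 4.39 over the 17 alternatives. Counts of calls among the 7 genes carry the same limit and are given as a description. DESeq2 gave 2 higher and 1 lower of the 7 genes, 625 and 469 of all genes and 5 and 5 of the list genes. Limma-voom with sample quality weights gave 2 and 1, 1534 and 1325, and 14 and 10. Without Hhex KO replicates 1 and 4 the counts were 2 and 1, 1754 and 1790, and 16 and 13, and without replicates 2 and 3 they were 2 and 0, 548 and 331, and 5 and 5. The stricter filter gave 186 higher genes in all, and no filter 4 higher and 0 lower list genes. With 1 library left out, 91 to 527 genes were higher and 50 to 291 lower in all, 1 to 4 list genes were higher and 0 to 1 lower, and 1 of the 7 was higher and 0 lower. The full set gave 326 higher and 228 lower genes.

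Fut7 turned to above 0 without Hhex KO replicates 2 and 3 (0.071), and ranged from -0.13 to 0.049 with 1 library left out. Selplg turned with quality weights (0.12), the replicate block (0.062) and without Hhex KO replicates 1 and 4 (0.18), and ranged from -0.13 to 0.070 with 1 library left out. Fut11 turned without Hhex KO replicates 2 and 3 (-0.056), as did Neu3 (0.14; -0.28 to 0.013 with 1 library left out). Neu1 turned with quality weights (-0.011), the replicate block (-0.052) and without Hhex KO replicates 1 and 4 (-0.051; -0.051 to 0.076 with 1 library left out). The causes were not tested. Fut7 did not pass the stricter filter.

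A pairing of the samples by replicate number was not shown. Libraries of the same number had deviations that correlated at 0.15, 0.57 and -0.08. Of 3 Hhex KO libraries, 2 correlated better with a Cre control library of another number. Replicate 2 correlated at 0.57 with its own number and at most at -0.27 with another, so a pairing is not excluded. The replicate block, fitted without Hhex KO replicate 4, which has no control of its number, gave 499 higher and 275 lower genes, and leaving out that library without a block gave 527 and 291. At 20 to 54 reads per Cre control library, the level of Gcnt2 there, and so the size of its ratio, is loosely known. Gene-level counts do not tell transcripts apart, and RNA levels give neither enzyme activity nor glycan structure.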

Other observations

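Protein-coding genes within 300000 bases of Gcnt2 were looked up after its values were seen. Of 8 such genes, 3 passed the filter on low counts, and none of these was called by edgeR. Pak1ip1 was at 59.3 to 71.0 CPM in Hhex KO and 61.9 to 74.2 CPM in Cre control (log2 fold change -0.07 ± 0.12). Tmem14c was at 73.8 to 111 CPM in Hhex KO and 73.1 to 92.9 CPM in Cre control (0.21 ± 0.17), and Smim13 at 12.8 to 21.6 CPM in Hhex KO and 14.5 to 18.2 CPM in Cre control (0.07 ± 0.19). All 3 overlapped between the groups. Tfap2a and Gcm2 did not exceed 0.344 CPM, and Mak, Sycp2l and Elovl2 had 0 reads in every library. Antisense transcripts annotated across Gcnt2 were near 0, the highest being A730081D07Rik, at 0.236 to 0.797 CPM in Hhex KO and 0.150 to 0.528 CPM in Cre control.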
